A study of Mus musculus with 6 samples.

Results

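Lung tissue of male C57BL/6J mice aged 12 weeks was compared 3 days after LPS and 3 days after PBS by single-cell RNA sequencing. The LPS group had 2 mice given 1 mg/kg of LPS, and the control group had 2 mice given PBS. Each mouse gave 1 library, called control 1, control 2, LPS 1 and LPS 2 after the replicate numbers of the labels. Neither the route of LPS nor the hour of collection is stated in the labels. A further group of 2 mice received the same LPS dose with 7 activations of the SLC, named in the series title as the subcoeruleus nucleus. That group was not compared here. Its libraries entered the statistical fit to estimate the spread between mice, and also the filter on low counts and the scaling between libraries. Members of the comparison were barcodes with at least 500 UMIs (unique transcript molecules), at least 300 genes and under 20% of UMIs in mitochondrially encoded genes. They numbered 12673 in control 1, 12444 in control 2, 13710 in LPS 1 and 11608 in LPS 2, or 50435 of the 76800 in the series. UMI counts were summed per library and gene, and levels are given in CPM, the gene's count scaled to that sum. Any difference in a sum can come from fewer cells of a type or from less RNA per cell, and these cannot be told apart in such sums.

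LPS is a component of the outer membrane of Gram-negative bacteria. Myeloid and lung cells sense it through Toll-like receptor 4 with its co-receptors CD14 and MD-2, and the receptor drives NF-kB and interferon-regulatory factors. The first pathway induces cytokines, chemokines and acute phase proteins, the second induces interferon and through it antiviral genes and GTPases. In the lung this is followed by entry of neutrophils and later of monocytes, and lipopolysaccharide lung injury is a common model of acute inflammation.

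The 4 libraries held 36738484 to 48641470 deposited UMIs, and 76.4% to 89% of these were in the kept barcodes. Median UMIs per kept barcode were 1543 to 1748 in 3 libraries and 2606 in LPS 2. The median mitochondrial share was 8.82% and 7.99% in the control libraries and 1.43% and 2.86% in the LPS libraries, so this measure of cell condition moved with the groups, and its part in the results was not tested. No pair of libraries shared more than 6 barcodes. Replicates of a group differed by more than counting noise, with a chi-square over genes, divided by its degrees of freedom, of 33.2 between the control libraries and 224 between the LPS libraries. LPS 1 and LPS 2 also differed in neutrophil markers per barcode. Of the 8 neutrophil markers listed (Csf3r, Cxcr2, Mmp9, Retnlg, Hdc, Ly6g, S100a8, S100a9), barcodes with at least 3 made up 19.8% and 15.8% of control 1 and control 2, and 55.1% and 45.3% of LPS 1 and LPS 2. In LPS 1 the largest classes were barcodes with 2 or 3 markers (2540 and 2350), whereas in LPS 2 they were barcodes with 0, 1 or all 8 markers (2527, 2370 and 1523).

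**Figure D1:**
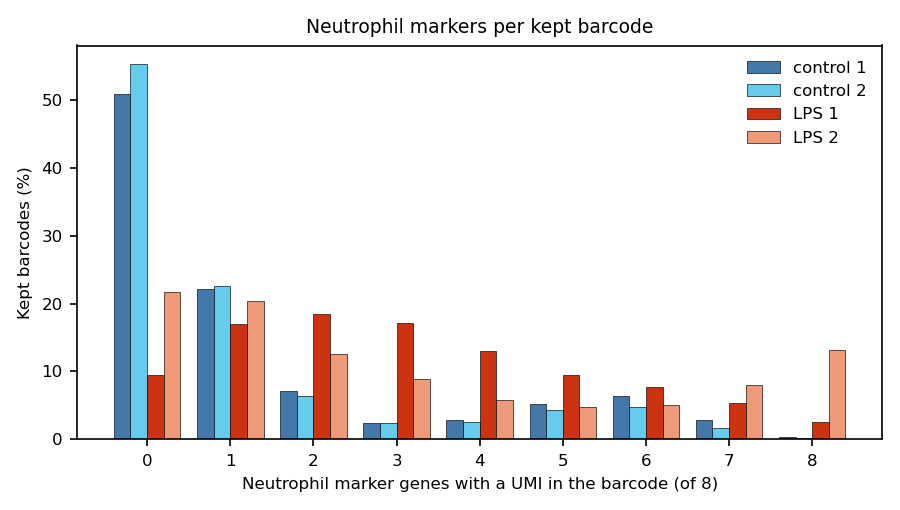
Percent of kept barcodes (y axis) that had a UMI of 0 to 8 of the neutrophil marker genes (x axis), with 1 bar for each control and LPS library. Both control libraries fall off after 0 and 1 marker and rise again at 5 and 6, LPS 2 has a separate group with 8, and LPS 1 is spread around 2 and 3.

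In the whole library, 1404 of the 17900 genes tested were called between LPS and control (edgeR quasi-likelihood F test, Benjamini-Hochberg adjusted p under 0.05), a background of 7.84%, and 28.4% of genes had an unadjusted p under 0.05. Of these calls, 709 were higher after LPS (3.96%) and 695 lower (3.88%). The median log2 fold change over all tested genes was -0.02 with TMM scaling. Without scaling beyond the library size it was -0.39, and the split moved to 518 higher and 1774 lower. Fold changes below are TMM-scaled, log2 of LPS over control, and therefore sit somewhat above the ratio of the CPM values. The standard error (SE) beside them is the absolute log2 fold change divided by the square root of its F statistic. Control and LPS libraries did not overlap in CPM for 65.6% of all tested genes, so lack of overlap alone sets no gene apart. No gene was called when either control library was left out (2827 genes without control 1 and 2621 without control 2 had an unadjusted p under 0.05). Every call below therefore rests on both control libraries, and the adjusted p of the named called genes then ran from 0.13 to 0.318.

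The largest rises included genes known from activated phagocytes. Nos2, the inducible nitric oxide synthase, stood at 0.98 and 0.427 CPM in control 1 and control 2 and at 169 and 158 CPM in LPS 1 and LPS 2 (log2 fold change 8.22, SE 0.63, edgeR adjusted p = 0.0159). Saa3, a serum amyloid A made in tissue during the acute phase, stood at 6.83 and 5.31 CPM in controls and 2095 and 522 CPM after LPS (8.14, SE 0.81, edgeR adjusted p = 0.0159). Both LPS libraries were far above both controls for these genes, and for Saa3 the 2 LPS libraries were themselves unequal. Inhba, the activin A subunit, rose from 11.3 and 12.8 CPM to 537 and 307 CPM (5.51, SE 0.46, edgeR adjusted p = 0.0159). Ly6i, a Ly6 family surface protein, rose from 12.2 and 9.15 CPM to 1341 and 793 CPM (7.02, SE 0.91, edgeR adjusted p = 0.0198). For Stfa2, a stefin A cysteine protease inhibitor, the LPS libraries were unequal, at 22.9 CPM in LPS 1 and 249 CPM in LPS 2 against 1.84 and 1.35 CPM in controls (6.76, SE 1.23, edgeR adjusted p = 0.0323). Its call ended without either SLC_LPS library in the fit (edgeR adjusted p = 0.0604 and 0.0608). Saa3, Ly6i and Stfa2 belong to families of close copies, and the labels do not state how reads shared between copies were counted.

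**Figure D2:**
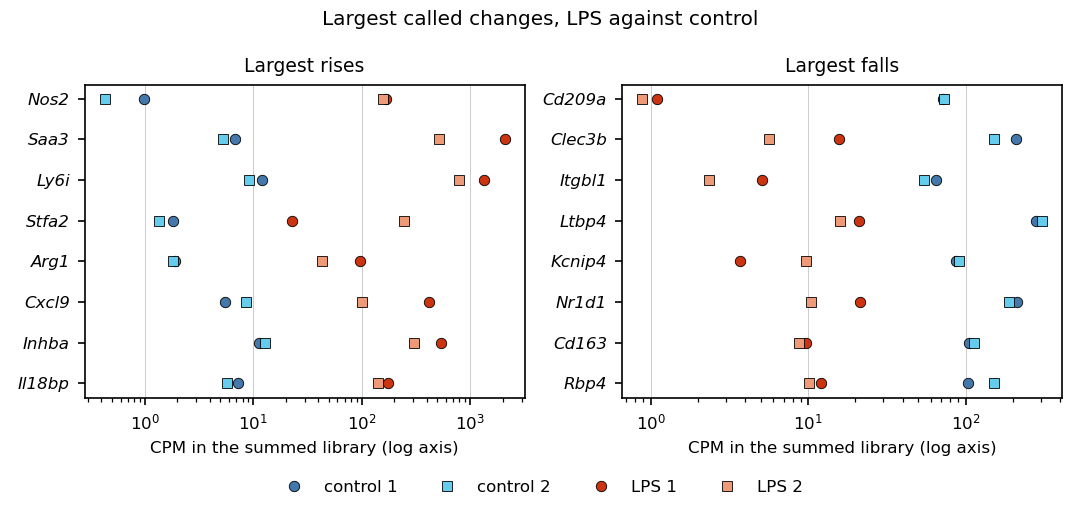
CPM in the summed library on a log axis for the 8 largest called rises and the 8 largest called falls whose higher group averaged 50 CPM or more, with 1 point per library. In all 16 genes the control and LPS points do not overlap, Nos2 goes from 0.98 and 0.427 CPM to 169 and 158 CPM, and Cd209a from 72.4 and 73.4 CPM to 1.09 and 0.878 CPM.

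The receptor complex for LPS was itself higher after LPS. Of 15 genes of the Toll-like receptor 4 pathway, 7 rose and none fell (list median 1.13). Cd14, which hands LPS to the receptor, rose from 726 and 656 CPM to 2965 and 2575 CPM (2.38, SE 0.26, edgeR adjusted p = 0.0165). Tlr4 rose from 28.5 and 27.4 CPM to 57.9 and 50.9 CPM (1.34, SE 0.21, edgeR adjusted p = 0.0242), and Ly96, which encodes MD-2, rose by 1.37 (SE 0.23, edgeR adjusted p = 0.0276). Irak3, an inhibitory kinase of the pathway, rose from 48.4 and 42.3 CPM to 153 and 181 CPM (2.25, SE 0.23, edgeR adjusted p = 0.0159). Acod1, the itaconate-producing enzyme of activated phagocytes, rose from 1083 and 822 CPM to 3984 and 4854 CPM (2.59, SE 0.40, edgeR adjusted p = 0.0242). The remaining calls of the list were Tlr2 and Irak2.

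All 16 subunits and feedback inhibitors of NF-kB had a positive fold change, with a median of 0.87, and 2 passed the test. Traf1, an adaptor of tumour necrosis factor receptors, rose from 125 and 112 CPM to 321 and 248 CPM (1.64, SE 0.31, edgeR adjusted p = 0.0336). Birc3, a ubiquitin ligase of the same receptors, rose by 1.10 (SE 0.24, edgeR adjusted p = 0.0434). Traf1 was not called without LPS 1 (edgeR adjusted p = 0.0506), and Birc3 was not called without LPS 2 or either SLC_LPS library (0.0533 to 0.0585), nor without scaling (0.0781). Nfkbiz, an inducible regulator of NF-kB, stood at 869 and 844 CPM in controls and 1250 CPM in each LPS library (0.92, SE 0.23) and did not pass (edgeR adjusted p = 0.0611). The positive signs did not hold in barcodes with at least 3 neutrophil markers. There 4 of the 16 genes were positive (median -0.11), and the list summed to 18460 and 18346 CPM in controls and 10723 and 12128 CPM after LPS. In barcodes with at most 1 marker all 16 were positive (median 0.88). None was called in either set of barcodes.

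Of 18 inflammatory cytokines, 8 were called higher, 1 was called lower and 9 did not pass, with a median of 2.14. Il1b was the most abundant of those named, at 3007 and 2472 CPM in controls and 9566 and 9792 CPM after LPS (2.20, SE 0.24, edgeR adjusted p = 0.0165). Il12a, the p35 subunit of IL-12, rose from 9.03 and 6.23 CPM to 62.8 and 51.2 CPM (3.28, SE 0.36, edgeR adjusted p = 0.0168). Il23a, the p19 subunit of IL-23, rose from 49.7 and 48.4 CPM to 230 and 150 CPM (2.33, SE 0.28, edgeR adjusted p = 0.0177). Il1a, Csf1, Csf3 and Lif were called too, with Inhba given above. Ifnb1, which encodes interferon beta, was the 1 member that fell, from 17.9 and 11 CPM to 1.38 and 1.04 CPM (-3.20, SE 0.63, edgeR adjusted p = 0.0359). Tnf and Il6 did not pass (1.27 and 1.52, with edgeR adjusted p = 0.0614 and 0.0745). Ifnb1, Tnf and Il6 were named here after their values were seen.

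Of 12 genes that hold cytokines in check, 6 were called higher and none lower (median 1.65). Il1rn, the antagonist of the IL-1 receptor, rose from 366 and 387 CPM to 2958 and 1726 CPM (3.02, SE 0.33, edgeR adjusted p = 0.0168). Il18bp, the soluble IL-18 binding protein, rose from 7.23 and 5.77 CPM to 176 and 143 CPM (5.0, SE 1.03, edgeR adjusted p = 0.0395), and its call ended without LPS 1 (0.0591). Cd274, which encodes the checkpoint ligand PD-L1, rose from 207 and 144 CPM to 688 and 745 CPM (2.41, SE 0.29, edgeR adjusted p = 0.019). Tnfrsf1b, the second receptor of tumour necrosis factor, rose by 2.04 (SE 0.34, edgeR adjusted p = 0.0271).

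Chemokine genes were called more often among those for neutrophils than among those for monocytes, a difference that was not tested. Of 12 neutrophil-attracting chemokines and receptors, 6 were called higher (median 1.58), and of 14 for monocytes, 2 were (median 0.85). The 6 were Cxcl3, Cxcl5, Fpr1, Fpr2 and the receptors Cxcr1 and Cxcr2, of which Cxcr2 is also a neutrophil marker. The Cxcr1 call ended without either SLC_LPS library (0.0568 and 0.063), without scaling (0.0606) and with a stricter cell filter of 1000 UMIs, 500 genes and 10% mitochondrial UMIs (0.0502). The formyl peptide receptor genes Fpr1 and Fpr2 rose from 258 and 253 CPM to 582 and 909 CPM (1.91, SE 0.27) and from 240 and 224 CPM to 1022 and 1319 CPM (2.71, SE 0.25), with edgeR adjusted p = 0.0231 and 0.0159. Cxcl5 rose by 2.92 (SE 0.44, edgeR adjusted p = 0.0242) but stayed near the limit of detection, at 2.45 and 3.23 CPM after LPS. Among monocyte genes, Ccl9 rose from 235 and 226 CPM to 438 and 645 CPM (1.60, SE 0.27, edgeR adjusted p = 0.0272), and Ccr1 was the other call. The Ccl9 call ended without barcodes above the 95th percentile of UMIs (edgeR adjusted p = 0.128) and with each barcode weighted equally (limma adjusted p = 0.114). Ccl3 differed more between the LPS mice, 6280 and 2012 CPM, than between LPS 2 and the controls, 1304 and 1087 CPM, and did not pass (edgeR adjusted p = 0.0569).

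Of 9 genes of the interferon-gamma axis, 4 rose and none fell (median 1.34), among them Cxcl9 and Cxcl11, ligands of CXCR3 on T and NK cells. Cxcl9 rose from 5.54 and 8.65 CPM to 422 and 101 CPM (5.59, SE 1.15, edgeR adjusted p = 0.0397), and the call ended without LPS 1 (0.0587). Cxcl11 rose from 0.735 and 1.71 CPM to 16.5 and 14.8 CPM (4.05, SE 0.72, edgeR adjusted p = 0.0312). The call of Ifngr2 ended without LPS 2 or either SLC_LPS library (0.0519 to 0.057), without scaling (0.0631), without the barcodes richest in UMIs (0.0592) and with equal barcode weights (0.0975).

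Interferon-induced GTPases, which act against pathogens inside cells by attacking their vacuoles, had the highest median of the 30 pathway lists. All 16 had a positive fold change (median 3.13), and 8 were called: Gbp2, Gbp3, Gbp5, Gbp6, Gbp7, Irgm1, Irgm2 and Ifi47. Gbp2 rose from 88.1 and 87.3 CPM to 1302 and 1152 CPM (4.18, SE 0.77, edgeR adjusted p = 0.0329). Gbp5 rose from 17.2 and 18.6 CPM to 194 and 350 CPM (4.29, SE 0.76, edgeR adjusted p = 0.031), and Irgm1 rose from 35.2 and 16.8 CPM to 150 and 263 CPM (3.37, SE 0.58, edgeR adjusted p = 0.0285). Type I interferon-stimulated genes, mostly antiviral, had 10 of 24 called higher, none lower and a median of 2.30. Zbp1, a sensor of Z-form nucleic acid, rose from 10.3 and 9.12 CPM to 145 and 96.9 CPM (4.01, SE 0.69, edgeR adjusted p = 0.0284). Usp18, which removes ISG15 from proteins and dampens interferon signalling, rose from 9.92 and 10.1 CPM to 66.9 and 90.9 CPM (3.35, SE 0.52, edgeR adjusted p = 0.0244). Guanylate-binding and immunity-related GTPases include near-identical copies, so reads may be split among them.

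Shown are the promoters of 4 called genes, picked among the largest rises and the genes named from the pathway lists. They had the largest rises of those with an NF-kB or interferon-response motif in the printed bases. These motifs were used because they are the elements through which the pathways named above act. Each line gives the 250 bases before the annotated start, 5′ to 3′ on the gene's strand, from RefSeq on GRCm38.p6, with motif matches in capitals. The Saa3 window is chr7:46715677-46715926 on the minus strand, Gbp5 is chr3:142496684-142496933 on the plus strand, Gbp2 is chr3:142620413-142620662 on the plus strand, and Irgm1 is chr11:48871421-48871670 on the minus strand.
Saa3: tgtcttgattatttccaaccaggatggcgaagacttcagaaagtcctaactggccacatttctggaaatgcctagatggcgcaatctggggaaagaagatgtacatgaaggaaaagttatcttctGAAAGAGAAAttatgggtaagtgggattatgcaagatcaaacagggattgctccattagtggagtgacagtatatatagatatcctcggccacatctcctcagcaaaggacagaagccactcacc
Gbp5: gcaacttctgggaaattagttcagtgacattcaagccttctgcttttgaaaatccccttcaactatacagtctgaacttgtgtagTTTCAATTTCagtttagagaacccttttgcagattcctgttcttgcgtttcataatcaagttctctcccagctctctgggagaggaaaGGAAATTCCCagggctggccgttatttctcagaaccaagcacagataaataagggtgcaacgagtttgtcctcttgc
Gbp2: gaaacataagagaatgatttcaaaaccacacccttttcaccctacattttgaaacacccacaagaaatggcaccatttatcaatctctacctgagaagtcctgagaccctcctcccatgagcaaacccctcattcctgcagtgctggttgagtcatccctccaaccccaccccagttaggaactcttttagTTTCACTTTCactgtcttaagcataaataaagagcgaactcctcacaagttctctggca
Irgm1: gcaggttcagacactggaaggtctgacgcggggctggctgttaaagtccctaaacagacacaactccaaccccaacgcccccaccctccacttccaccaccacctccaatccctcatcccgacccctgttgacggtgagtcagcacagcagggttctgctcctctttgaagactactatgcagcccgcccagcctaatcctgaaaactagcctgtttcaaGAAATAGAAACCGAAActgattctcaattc
Gbp5 carried the NF-kB match GGAAATTCCC beginning 77 bases before the start and the interferon-response match TTTCAATTTC beginning 165 bases before it. Gbp2 carried TTTCACTTTC beginning 59 bases before the start, and its NF-kB match lay past the start, outside the bases printed. Irgm1 carried the overlapping matches GAAATAGAAA and GAAACCGAAA, beginning 30 and 24 bases before the start. Saa3 carried GAAAGAGAAA beginning 125 bases before the start. The motifs searched, on both strands and chosen after the gene values were seen, were GGGA and TTCC separated by any 2 bases for NF-kB, and TTTC and TTTC separated by any 2 bases for the interferon-stimulated response element, in windows of 300 bases that reach past the start. Promoters were matched by symbol for 12908 of the 17900 genes tested. The interferon-response letters were in 3.97% of tested genes with a promoter, in 10.9% of those called higher and in 3.21% of those called lower. They were in 10 of 11 GTPase genes and 10 of 19 type I interferon-stimulated genes with a promoter. The NF-kB letters were in 1.74% of tested genes, 3.49% of those called higher and 1.81% of those called lower. A match describes letters in the window, not binding, and no test was made of these shares.

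Killing and defence genes rose beside the interferon genes. Of 19 acute phase and antimicrobial genes, 7 were called higher and none lower (median 2.12). Chil1, a chitinase-like protein, rose from 56.1 and 62.9 CPM to 344 and 230 CPM (2.65, SE 0.27, edgeR adjusted p = 0.0159). Wfdc17, a whey acidic protein domain antiprotease of myeloid cells, rose from 133 and 110 CPM to 934 and 597 CPM (3.04, SE 0.33, edgeR adjusted p = 0.0165), and Lcn2, Hp, Saa1 and Wfdc21 were the other calls. In arginine metabolism, 4 of 9 genes were called, all higher. Arg1, the arginase that competes with Nos2 for arginine, rose from 1.9 and 1.82 CPM to 96.5 and 43.6 CPM (5.62, SE 0.65, edgeR adjusted p = 0.0175), and the arginine transporter Slc7a2 rose from 85.7 and 110 CPM to 356 and 264 CPM (2.04, SE 0.26, edgeR adjusted p = 0.0197). Both enzymes were thus higher in both LPS mice. The Slc7a2 call ended without the barcodes richest in UMIs (0.066) and with equal barcode weights (0.0565). Cybb, the catalytic subunit of the phagocyte oxidase, rose from 811 and 873 CPM to 2499 and 2381 CPM (1.91, SE 0.22, edgeR adjusted p = 0.0168), and Ncf1 and Rac2 of the same complex also rose. Of the 7 genes of this list, 4 were called, all higher. The call of Rac2 ended without either SLC_LPS library (0.058 and 0.0597) and with equal barcode weights (0.0632).

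Inflammasome genes had 4 of 10 called higher and none lower, with a median of 1.08. Casp4, the caspase that binds LPS in the cytosol, rose from 133 and 137 CPM to 273 and 377 CPM (1.63, SE 0.32, edgeR adjusted p = 0.0366). Casp1 rose by 1.79 (SE 0.36, edgeR adjusted p = 0.0384) and was not called without LPS 2 (0.0519). Nlrp3 rose from 1485 and 1331 CPM to 3009 and 2351 CPM (1.31, SE 0.24, edgeR adjusted p = 0.0331). Nlrp3 and Pycard were not called without either SLC_LPS library (0.052 to 0.0942). Nlrp3 was also not called with the stricter cell filter (0.0535), nor Pycard without scaling (0.0511), without the barcodes richest in UMIs (0.0755) or with equal barcode weights (0.124).

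Lipid mediator genes moved in both directions, 4 of 13 higher and 2 lower. Enzymes of prostaglandin E2 synthesis were higher. Ptgs2, the inducible cyclooxygenase, rose from 442 and 255 CPM to 1855 and 1218 CPM (2.52, SE 0.40, edgeR adjusted p = 0.0244), and Ptges, the synthase after it, rose from 11.8 and 14.8 CPM to 68.1 and 89.4 CPM (2.93, SE 0.25, edgeR adjusted p = 0.0159). Ptgis, the prostacyclin synthase of vessel and stromal cells, fell from 85.3 and 108 CPM to 18.1 and 7.23 CPM (-2.55, SE 0.45, edgeR adjusted p = 0.0311). The Ptgis call ended without either SLC_LPS library (0.0689 and 0.0636).

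Antioxidant, iron and glycolytic genes were partly higher. Sod2, the manganese superoxide dismutase of mitochondria, rose from 379 and 401 CPM to 1711 and 1856 CPM (2.57, SE 0.23, edgeR adjusted p = 0.0159), and Slc7a11, the cystine transporter, rose from 355 and 281 CPM to 1030 and 977 CPM (2.04, SE 0.22, edgeR adjusted p = 0.0168). With Gsr and Srxn1, 4 of 13 NRF2 antioxidant genes were called higher and none lower. In iron handling, 3 of 11 were higher and 1 lower. Slc11a1, the phagosome iron exporter, rose from 44.8 and 38 CPM to 210 and 183 CPM (2.63, SE 0.45, edgeR adjusted p = 0.029). Cd163, the haemoglobin scavenger receptor of resident macrophages, fell from 105 and 113 CPM to 9.71 and 8.71 CPM (-3.19, SE 0.23, edgeR adjusted p = 0.0159). All 21 glycolysis and hypoxia genes had a positive fold change (median 1.01), and 3 passed, Hif1a by 1.29 (SE 0.21), Pgk1 by 1.41 (SE 0.21) and Eno1 by 1.78 (SE 0.30), with edgeR adjusted p = 0.0246, 0.0242 and 0.0276. With equal barcode weights all 3 calls ended (limma adjusted p = 0.0802 for Hif1a, 0.0591 for Pgk1 and 0.0636 for Eno1), and Eno1 was also not called without either SLC_LPS library (0.0559 and 0.0567).

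For MHC class I, which presents peptides from inside the cell, all 12 genes had a positive fold change (median 1.78) and 5 were called. For MHC class II, which presents peptides taken up by phagocytes, 3 of 11 had a positive fold change (median -0.39). None of them passed the edgeR test (1 at an unadjusted p under 0.05). The class II genes summed to 8789 and 8901 CPM in controls, 10858 CPM in LPS 1 and 4375 CPM in LPS 2. The LPS libraries thus lay on both sides of the controls. The difference between the classes was not tested. Psmb9, an immunoproteasome subunit, rose from 6.15 and 5.95 CPM to 26.6 and 32.8 CPM (2.67, SE 0.31, edgeR adjusted p = 0.0169). B2m, the light chain of class I, rose from 2698 and 1959 CPM to 6074 and 5558 CPM (1.70, SE 0.37, edgeR adjusted p = 0.0434) and was not called without LPS 1 (0.067) or without the barcodes richest in UMIs (0.0523). Of 15 genes of cell division, 9 were called higher and none lower (median 1.15), and their summed level was 1012 and 948 CPM in controls and 1110 and 1323 CPM after LPS. Ccna2, cyclin A2, stood at 11.4 and 13.2 CPM in controls and 27 and 33 CPM after LPS (1.66, SE 0.26, edgeR adjusted p = 0.0242). With equal barcode weights the calls of Ccna2, Ccnb1, Top2a and Birc5 all ended (limma adjusted p = 0.0937, 0.154, 0.14 and 0.385). Without scaling those of Top2a and Birc5 ended (0.0557 and 0.072), without the barcodes richest in UMIs those of Ccnb1 and Birc5 (0.15 and 0.106). Birc5 was not called without either SLC_LPS library (0.0554 and 0.0603), nor Top2a without SLC_LPS 2 (0.0518).

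**Figure D3:**
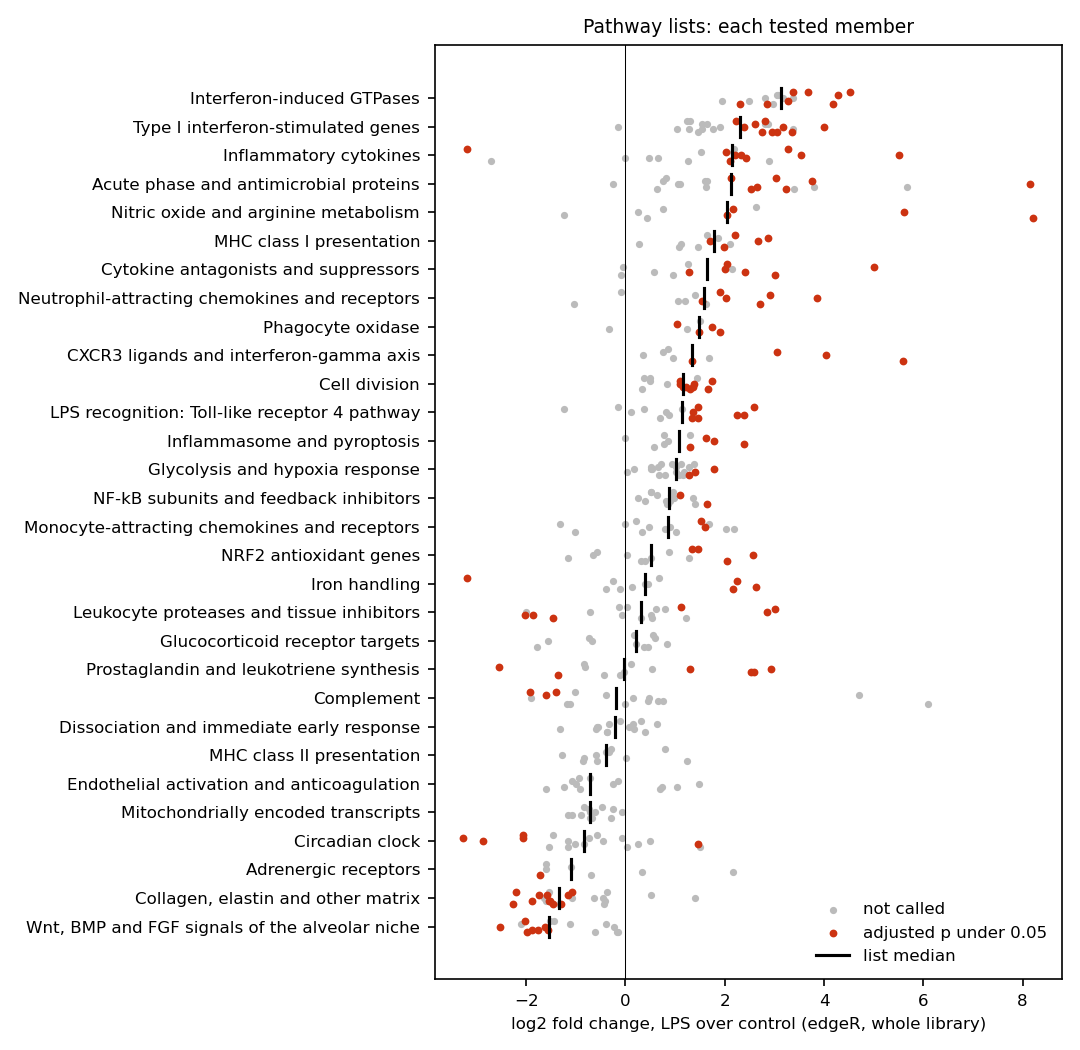
TMM-scaled log2 fold change of LPS over control (x axis) for every tested member of the 30 pathway lists (rows, ordered by their median), with called genes in red, the rest in grey and the list median as a black bar. Interferon-induced GTPases have the highest median, 3.13, and the Wnt, BMP and FGF genes of the niche the lowest, -1.53.

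The largest falls included genes known from connective tissue and resident phagocytes. Cd209a, a lectin of dendritic cells, fell from 72.4 and 73.4 CPM to 1.09 and 0.878 CPM (-5.83, SE 0.52, edgeR adjusted p = 0.0159). Ltbp4, which binds latent TGF-beta and elastic fibres, fell from 279 and 306 CPM to 21.2 and 16 CPM (-3.60, SE 0.33, edgeR adjusted p = 0.0159). Clec3b, the tetranectin of fibroblasts, fell from 210 and 151 CPM to 15.7 and 5.68 CPM (-3.69, SE 0.61, edgeR adjusted p = 0.0267). Neither LPS library overlapped a control for these 3 genes, and the Clec3b call ended with the control and LPS libraries alone (0.0503). Rbp4, the retinol carrier, fell from 104 and 152 CPM to 12 and 10.2 CPM (-3.16, SE 0.43, edgeR adjusted p = 0.0207), and Itgbl1 and Kcnip4 fell by 3.63 and 3.35 on the log2 scale.

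Of 23 collagen, elastin and other matrix genes, 11 fell and none rose (median -1.33). Col14a1 fell from 449 and 512 CPM to 75.3 and 80.2 CPM (-2.26, SE 0.22, edgeR adjusted p = 0.0159), and Dcn, the proteoglycan decorin, fell from 1408 and 1344 CPM to 266 and 192 CPM (-2.21, SE 0.25, edgeR adjusted p = 0.0168). Signals by which fibroblasts sustain the alveolar epithelium fell with them, 7 of 16 called lower, none with a positive fold change, and a median of -1.53. Fgf10, a growth factor for epithelial progenitors, fell from 43.2 and 39.3 CPM to 3.46 and 7.67 CPM (-2.52, SE 0.40, edgeR adjusted p = 0.0246). Axin2, a target of Wnt signalling, fell from 13.4 and 10.6 CPM to 3.17 and 2.8 CPM (-1.63, SE 0.31, edgeR adjusted p = 0.0338), and Gli1, a target of hedgehog signalling, fell by 1.98 on the log2 scale (SE 0.39, edgeR adjusted p = 0.0354). Fgf10, Axin2, Wnt5a and Gli1 were not called without either SLC_LPS library (0.0511 to 0.0683), and Gli1 also not without LPS 1 (0.0508). Gli1 and Wnt5a were not called without the barcodes richest in UMIs either (0.0503 and 0.0642). The fibroblast markers moved the same way. Their summed level over 12 genes was 9064 and 9139 CPM in controls and 2938 and 2107 CPM after LPS, and 4 of them were called lower. Its part in the matrix and niche results was not tested.

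Complement genes had 3 of 16 called, all lower. Serping1, the C1 inhibitor, fell from 515 and 773 CPM to 168 and 164 CPM (-1.59, SE 0.26, edgeR adjusted p = 0.0264), and Cd55, a decay-accelerating factor on cell surfaces, fell by 1.40 (SE 0.30, edgeR adjusted p = 0.0417). Both encode inhibitors of complement, and both calls ended without either SLC_LPS library (0.0511 to 0.0787). That of Cd55 also ended with the stricter cell filter (0.0931) and without the barcodes richest in UMIs (0.0704). Proteases were mixed, with Mmp8, Mmp9 and Plaur higher and Mmp2, Mmp3 and Timp2 lower of 17 (Mmp3 not without either SLC_LPS library, 0.0718 and 0.0644). Mmp9, the gelatinase stored in neutrophil granules, rose from 35.5 and 30.3 CPM to 112 and 302 CPM (3.02, SE 0.46, edgeR adjusted p = 0.0242), a call that ended with the control and LPS libraries alone (0.0505). Mmp2, the gelatinase of stromal cells, fell from 322 and 331 CPM to 93.4 and 89.9 CPM (-1.46, SE 0.23, edgeR adjusted p = 0.0242).

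The circadian clock is a feedback loop in which CLOCK and BMAL1 drive their own repressors. Of 19 clock genes tested, 4 fell and 1 rose (median -0.84). Nr1d1, the repressor REV-ERB alpha, fell from 212 and 188 CPM to 21.3 and 10.4 CPM (-3.27, SE 0.50, edgeR adjusted p = 0.0242). Tef and Hlf, output factors of the PAR bZIP family, fell from 26.1 and 33.9 CPM to 6.36 and 4.71 CPM (-2.06, SE 0.33) and from 98.6 and 139 CPM to 13 and 31.3 CPM (-2.06, SE 0.45), with edgeR adjusted p = 0.0248 and 0.0454. Dbp, the third of that family and named after its value was seen, fell from 18.1 and 27.2 CPM to 3.14 and 1.64 CPM (-2.87, SE 0.65, edgeR adjusted p = 0.0476). Cry1, a repressor of the CLOCK and BMAL1 pair, rose from 62.8 and 63.1 CPM to 116 and 153 CPM (1.47, SE 0.22, edgeR adjusted p = 0.0232). The core activators Clock and Arntl, which encodes BMAL1, did not pass, with fold changes of 0.25 (SE 0.25) and 0.03 (SE 0.32) and overlapping libraries; both were named after their values were seen. Hlf was not called without LPS 1 or either SLC_LPS library (0.0506 to 0.0803), nor without the barcodes richest in UMIs (0.0766), and Tef not without SLC_LPS 1 (0.0506). The Nr1d1 fold change was -3.12 (SE 0.57) in barcodes with at least 3 neutrophil markers and -2.97 (SE 0.56) in those with at most 1, and passed in neither (edgeR adjusted p = 0.0505 and 0.148). Clock genes vary with the hour of collection, which the labels do not state.

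**Figure D4:**
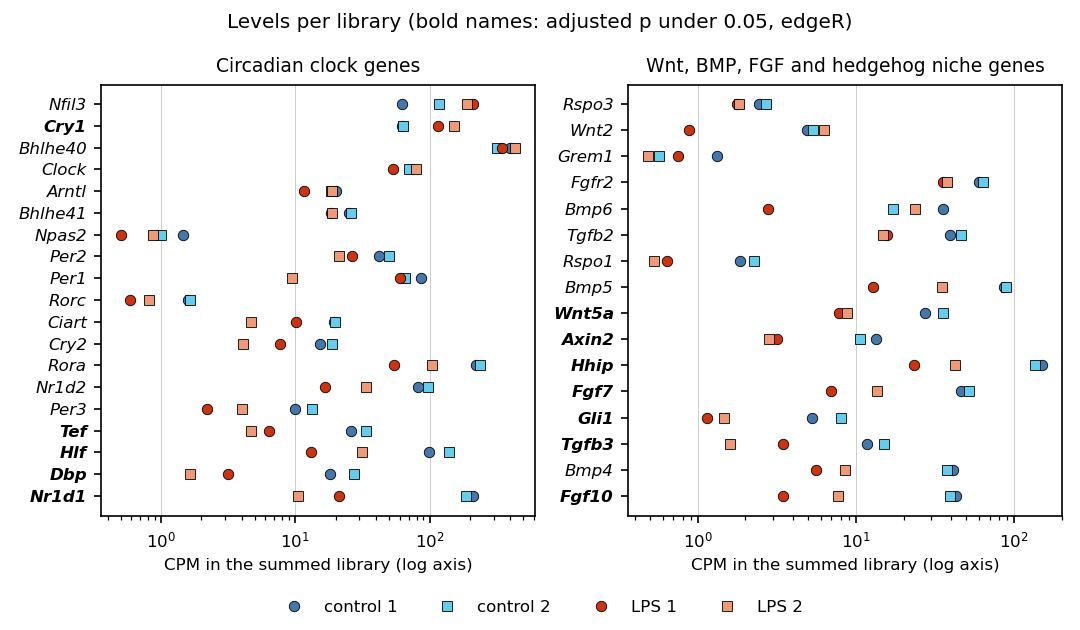
CPM in the summed library on a log axis for the tested circadian clock genes (left) and niche signal genes (right), with 1 point per library, genes ordered by fold change and called genes in bold. Nr1d1 falls from 212 and 188 CPM to 21.3 and 10.4 CPM, Cry1 lies above the controls, and Clock and Arntl overlap.

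Adrenergic receptors, through which sympathetic nerves act, were low throughout. Adrb1, the beta-1 receptor, fell from 49.6 and 41.6 CPM to 7.64 and 13.7 CPM (-1.73, SE 0.32, edgeR adjusted p = 0.0329), the 1 call of 7 tested, and the call ended without either SLC_LPS library (0.0661 and 0.0629), with the stricter cell filter (0.066) and without the barcodes richest in UMIs (0.0672). Of 6 tested Schwann cell and nerve markers, Sox10 and Cdh19 were called lower. Sox10, the Schwann cell transcription factor, named after its value was seen, had 33 UMIs over both control libraries and 0 over both LPS libraries, at least 14.6-fold lower when 3 UMIs over the group are taken as the floor. These markers summed to 18.2 and 13.2 CPM in controls and 1.41 and 2.45 CPM after LPS.

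Several lists gave no call. None of 11 glucocorticoid receptor targets, 14 immediate early genes, 13 endothelial activation genes or 13 mitochondrially encoded transcripts passed the edgeR test, with 4, 2, 4 and 5 of them at an unadjusted p under 0.05. The mitochondrial transcripts all had a negative fold change and summed to 86370 and 80299 CPM in controls and 52765 and 41849 CPM after LPS. Icam1, the leukocyte adhesion molecule of endothelium, stood at 236 and 543 CPM in controls and 604 and 1100 CPM after LPS (1.49, SE 0.46, edgeR adjusted p = 0.0935).

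Markers of cell types describe what the sums held. Of the 8 neutrophil markers, 7 rose, and their summed level was 3177 and 2070 CPM in controls and 7874 and 15739 CPM after LPS. Retnlg, named after its value was seen, rose from 423 and 288 CPM to 1910 and 4072 CPM (3.44, SE 0.52, edgeR adjusted p = 0.0242). The neutrophil marker S100a8 rose from 1116 and 546 CPM to 2698 and 4651 CPM (2.52, SE 0.46, edgeR adjusted p = 0.0323). Its call ended without either SLC_LPS library and with the stricter cell filter (edgeR adjusted p = 0.051). Ly6c2, a marker of classical monocytes, rose from 167 and 112 CPM to 1724 and 1615 CPM (3.96, SE 0.50, edgeR adjusted p = 0.0197), but it was the only call among the 8 monocyte markers. In the alveolar macrophage list none of 10 passed, and Plet1 was at 195 CPM in LPS 1 and 1561 CPM in LPS 2 against 1069 and 1383 CPM in controls. Lists of T, NK and B cells and of vessel endothelium, smooth muscle and alveolar type 2 cells gave no call. B cell markers summed to 729 and 634 CPM in controls and 199 and 233 CPM after LPS, all 9 with a negative fold change. Ciliated cell markers fell in 2 of 8, and dendritic cell markers in 1 of 10, Cd209a. The rises named above went the same way as the neutrophil markers between the groups. Between the LPS libraries the order of the markers depended on the measure. By summed CPM the markers were higher in LPS 2, as were Stfa2, Gbp5 and Fpr1, whereas Saa3, Inhba, Ly6i and Arg1 were higher in LPS 1. By barcodes with at least 3 markers, LPS 1 was the higher, with 55.1% of barcodes and 69.3% of UMIs against 45.3% and 46.2% in LPS 2. The part of neutrophil content in these differences was not tested.

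Counts were summed again over barcodes with at least 3 neutrophil markers and over barcodes with at most 1. These are gates on transcripts and not cell types. They do not hold marker content equal, since markers per barcode were spread differently in LPS 1, LPS 2 and the controls. Barcodes with at least 3 markers held 17.2% and 11.9% of UMIs in control 1 and control 2, and 69.3% and 46.2% in LPS 1 and LPS 2. The gates therefore cannot tell a change in the share of cells from a change within cells. Some transcripts were also found in barcodes of unrelated cells. Among barcodes with at least 3 B cell markers and at most 1 neutrophil marker, which should lack Saa3, 45% had a Saa3 UMI in LPS 1 and 3.23% in LPS 2, against 0.136% and 0.171% in controls (median UMIs of these barcodes 1083, 1454, 1203 and 989). Thinned to 500 UMIs per barcode the shares were 24.5%, 1.01%, 0.0423% and 0.0593%. For Nos2 they were 0.978% in LPS 1 and 0.157% in LPS 2 in these B cell marker barcodes, against 6.84% and 7.83% in barcodes with neutrophil markers.

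In barcodes with neutrophil markers, 205 of 15998 genes tested were called (1.28%), 99 higher (0.619%) and 106 lower (0.663%), the 8 gate genes left out. DESeq2 called 8.01% of genes here, and control and LPS libraries did not overlap for 50.5%. Of the 709 genes called higher in the whole library, 688 were tested here, 637 had a positive fold change with a median of 1.10 (1.94 in the whole library), and 91 were called. These barcodes are a subset of the whole library, so the counts are not independent of it. With at least 4 markers required, 6 genes were called, and with the control and LPS libraries alone 12.

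Most genes called higher in the whole library did not pass the test in barcodes with neutrophil markers, where 91 of 688 did. The following genes were among those that did not. Acod1 stood at 5669 and 6073 CPM in controls and 4403 and 8003 CPM after LPS there (0.40, edgeR adjusted p = 0.675). Il1b stood at 11817 and 11529 CPM against 10244 and 15045 CPM (0.43, edgeR adjusted p = 0.579), and Nlrp3 at 4921 and 4658 CPM against 3151 and 3589 CPM (-0.21, edgeR adjusted p = 0.753). In each the LPS libraries overlapped the controls or lay below them. Slc7a11, Gsr, Arg2 and Ccr1 were likewise near 0, with fold changes of 0.00, -0.04, 0.19 and -0.02.

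Some genes were far higher in the sums over these barcodes too, and these barcodes held other cell markers in unequal shares. These barcodes took in 73.2% of the UMIs of the fibroblast marker Col1a2 in LPS 1, 11.9% in LPS 2, and 9.39% and 4.15% in controls. For the macrophage marker Mrc1 the shares were 88.3%, 32.8%, 14% and 8.7%. Which cells carried the rises was not tested. Nos2 stood at 2.13 and 0 CPM in controls and 174 and 254 CPM after LPS (7.72, edgeR adjusted p = 0.0286), Saa3 at 9.42 and 5.11 against 2175 and 591 CPM (7.76, edgeR adjusted p = 0.0185), and Inhba at 24.9 and 18.6 against 561 and 328 CPM (4.60, edgeR adjusted p = 0.0185). Nos2 rests on 12 UMIs in controls and 9610 after LPS. GTPases had 5 of 16 called and a median of 3.58, among them Gbp3 (3.93, edgeR adjusted p = 0.0374) and Irgm1 (3.74, edgeR adjusted p = 0.0413). Ly6c2 rose from 178 and 145 to 1783 and 2020 CPM (3.85, edgeR adjusted p = 0.0351), and Cybb from 836 and 776 to 2873 and 2212 CPM (1.93, edgeR adjusted p = 0.041). Of the secretory genes, Bpifa1 fell here from 62.7 and 476 CPM to 0 and 0.951 CPM (-8.92, edgeR adjusted p = 0.0471). Cyp2f2 fell from 304 and 466 CPM to 33 and 29.6 CPM (-3.35, edgeR adjusted p = 0.04). Neither passed in the whole library (edgeR adjusted p = 0.408 and 0.0646). In LPS 2 these barcodes held 1.34% of 1413 Bpifa1 UMIs, against 14.5% and 36.7% of those in control 1 and control 2. Both are club or secretory cell genes, and their presence in barcodes with neutrophil markers of control lungs was not tested further.

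In barcodes without neutrophil markers no gene of 15565 was called by edgeR (0), while 2426 had an unadjusted p under 0.05 (15.6%) and DESeq2 called 884 (5.68%). Control and LPS libraries did not overlap for 54.3% of these genes. These barcodes held 70.1% and 76.4% of the UMIs of control 1 and control 2 and 14.9% and 36% of those of LPS 1 and LPS 2, so signs of genes chosen in the whole library are not independent of it and are given as a description. Of the 709 genes called higher in the whole library, 673 of 675 tested had a positive fold change, with a median of 1.76, and all 672 tested of the 695 lower genes had a negative one, with a median of -1.65. Acod1 stood at 108 and 101 CPM in controls and 2798 and 1950 CPM after LPS (4.71, edgeR adjusted p = 0.125), and Il1b at 1109 and 1232 CPM against 6753 and 4496 CPM (2.47, edgeR adjusted p = 0.125). Acod1 was found in 15.1% and 6.94% of B cell marker barcodes in LPS 1 and LPS 2 thinned to 500 UMIs, against 53.3% and 26.8% of all barcodes without neutrophil markers. The controls had 2.72% and 3.13% of the former and 4.3% and 4.34% of the latter. The part of free RNA in these results was not tested.

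**Figure D5:**
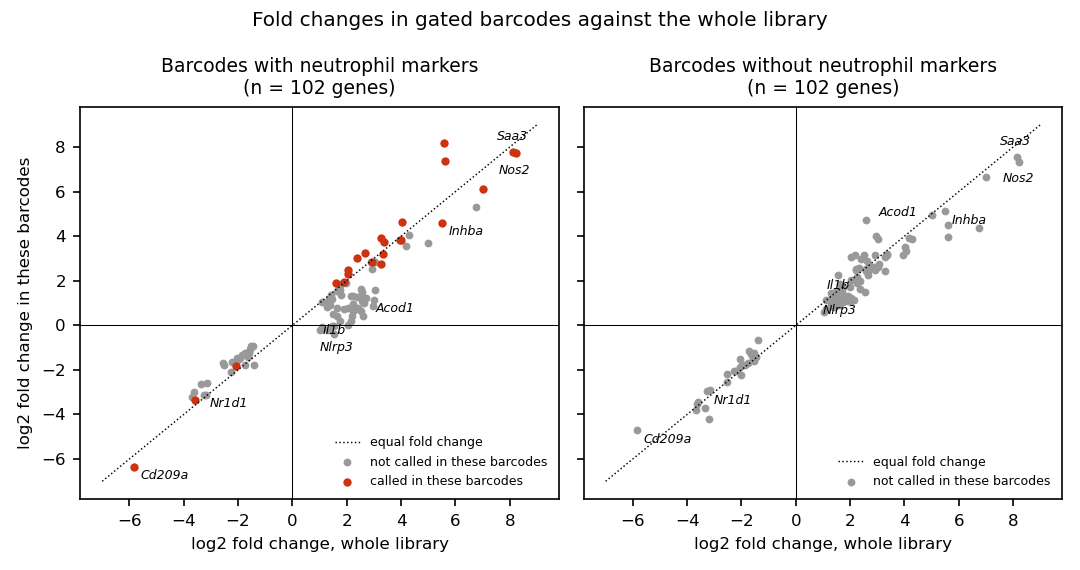
TMM-scaled log2 fold change in barcodes with (left) and without (right) neutrophil markers (y axis) against that in the whole library (x axis) for 102 named called genes, red where also called in those barcodes. On the left Acod1, Il1b and Nlrp3 lie at 0.40, 0.43 and -0.21, on the right at 4.71, 2.47 and 1.44, and 23 of the 102 are called on the left.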

How the data were processed

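Lung cells of 6 libraries were captured with BD Rhapsody and sequenced, per the labels' protocols, and GRCm39 and mm39 are named in the submitters' processing notes. The deposited values are unfiltered UMI counts per gene and barcode. The counting tool and strand setting are not given in the sources used here. Kept barcodes had 500 UMIs or more, 300 genes or more and less than 20% of mitochondrial UMIs, with no doublet removal, and counts were summed per library. LPS was compared with control by edgeR 4.0.16 (R 4.3.3; TMM, filterByExpr, robust quasi-likelihood F test) over all 6 libraries, leaving 3 residual degrees of freedom, with Benjamini-Hochberg adjustment over all genes. An exact permutation test of 2 against 2 libraries cannot go below p = 0.333. Alternatives used DESeq2 1.42.0 and limma 3.58.1. The tests were also run on simulated data with the same dispersion for every gene and library, and no result here rests on that run.

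The members and gene lists (30 pathway and 23 cell type lists) were chosen with earlier results of these data known. Genes named were the 8 largest called rises and 8 largest called falls averaging 50 CPM or more where higher, without overlap of the libraries, up to 4 members of each pathway list with the smallest p, the most abundant member of each cell type list, 3 rises and 3 falls in barcodes with neutrophil markers (barcodes without them had no call to name), and Adrb1, Cd14, Tlr4 and Ly96, with a few genes not reported here; 154 in all. Others are said to be named after their values were seen or are listed only as calls. Promoters came from a RefSeq table on GRCm38.p6, a different build from that of the notes, and were matched by symbol.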

Additional observations from a re-analysis of the deposited data

How the results depend on the processing

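In the whole library, the 1404 calls became 3182 with DESeq2, 4041 without a filter on low counts, 621 with the control and LPS libraries alone, 303 with the replicate number as a block, 2292 without scaling beyond library size and 2761 with each barcode weighted equally in limma. Leaving out 1 library at a time gave 0 to 2862 calls. The 205 calls in barcodes with neutrophil markers became 1281 with DESeq2, 1755 without the filter, 12 with the control and LPS libraries alone, 45 with the replicate block, 324 without scaling and 6 with at least 4 markers required, and 0 to 1749 with 1 library left out. The 0 calls in barcodes without neutrophil markers became 884 with DESeq2, 1834 without the filter and 204 with the control and LPS libraries alone and the replicate block, and 0 to 210 with 1 library left out. Of the 154 named genes, 104 were called, 47 with the replicate block and 0 to 113 with 1 library left out. Where a library was left out, the lone sample of its group was assumed to vary like the other groups. No named gene changed direction in an alternative where it was called there or in the main fit. Changes of direction in genes called in neither were not counted. The cause of these changes was not tested. Deviations of whole libraries with the same replicate number correlated over genes at 0.05 for control and LPS. They correlated at -0.11 for control and SLC_LPS and at -0.17 for LPS and SLC_LPS. Such correlations cannot settle whether the replicate numbers pair the samples. The fits without scaling and with the 4 libraries and a block were chosen after seeing the data. With 2 mice a group, the number of mice limits precision more than the depth of 28081235 to 43282030 kept UMIs per library.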
